A study of Mus musculus with 4 samples.

Results

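Receptors for the inhibitory transmitter GABA were measured in laser-captured mouse Purkinje cells, which carry the output of the cerebellar cortex and release GABA themselves. The genes described are 9 subunits of the GABA-A receptor and Gabbr1, a subunit of the GABA-B receptor, 10 genes in all of 18193 named genes on the array. They were taken by gene symbol, and every probe set annotated with exactly 1 of these symbols was used, which gave 29 of 34945 probe sets with 1 symbol. The 4 samples were Purkinje cells of 2 intact male C57BL/6J mice aged 8 weeks, 2 samples from each animal. Samples 2-1 and 2-2 came from animal 2, and samples 1-1 and 1-2 from animal 1. Both animals carried the same labels and no treatment, and the labels do not say whether the samples of an animal were separate captures, how many cells were cut or how the cells were recognized. The granule cell layer, which the study also names, was not analysed here.

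GABA-A receptors are chloride channels built from several subunits around a central pore. Alpha and beta subunits together form the GABA binding sites, a gamma subunit is typical of receptors at synapses, and the delta subunit takes its place in many receptors outside synapses that carry tonic inhibition. In the rodent cerebellum the alpha 6 and delta subunits are known as receptors of granule cells, and the alpha 2 and gamma 1 subunits are known from Bergmann glia, the radial glia that ensheath Purkinje cells. GABA-B receptors are G protein-coupled and act through potassium and calcium channels. Other subunits of both receptor types were not analysed here, apart from those named further on.

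Several of these genes lie next to each other. In the RefSeq annotation, Gabrg1, Gabra2, Gabra4 and Gabrb1 share chromosome 5, where Gabrg1 is adjacent to Gabra2 and Gabra4 is adjacent to Gabrb1, with overlapping annotated spans. Gabra6 and Gabrb2 are adjacent on chromosome 11. Gabra3 is on chromosome X, Gabra5 on chromosome 7, Gabrd on chromosome 4 and Gabbr1 on chromosome 17.

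The sequences before the start sites of 3 members are given because these genes span the patterns described further on: the gene with the smallest p between the animals (Gabra6), the gene with the widest tested difference (Gabrg1) and the gene whose brightest probe set had the smallest range over the 4 samples (Gabbr1), among members with 1 tabulated start and no overlapping gene. Each is the 250 bases upstream of the single tabulated start, read 5′ to 3′ on the strand of the gene from RefSeq, build GRCm38.p6. Capitals mark the letters of 5 motifs searched on both strands: the TATA box TATAAA, the CCAAT box CCAAT, the nuclear factor I half-site TTGGCA, the GC box GGGCGG and the ROR half-site AGGTCA.
Gabra6 (chr11:42321073-42321322, minus strand): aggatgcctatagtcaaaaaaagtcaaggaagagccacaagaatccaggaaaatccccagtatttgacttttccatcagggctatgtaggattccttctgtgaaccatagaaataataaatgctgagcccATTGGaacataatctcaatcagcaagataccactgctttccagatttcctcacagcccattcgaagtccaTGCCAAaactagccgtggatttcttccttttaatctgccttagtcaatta
Gabrg1 (chr5:70842618-70842867, minus strand): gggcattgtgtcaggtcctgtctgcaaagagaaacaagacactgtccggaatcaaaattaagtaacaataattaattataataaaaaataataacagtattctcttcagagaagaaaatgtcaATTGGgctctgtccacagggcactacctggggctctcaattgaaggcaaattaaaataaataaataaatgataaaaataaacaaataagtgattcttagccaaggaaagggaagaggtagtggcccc
Gabbr1 (chr17:37045716-37045965, plus strand): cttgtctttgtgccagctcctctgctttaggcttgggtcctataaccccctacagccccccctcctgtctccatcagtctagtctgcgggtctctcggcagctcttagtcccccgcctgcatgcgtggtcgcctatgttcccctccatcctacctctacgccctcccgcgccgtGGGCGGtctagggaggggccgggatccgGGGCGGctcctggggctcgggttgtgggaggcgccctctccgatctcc

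The windows differed in composition. Gabra6 held 2 CpG dinucleotides and 40.8% G and C, Gabrg1 held 1 and 35.6%, and Gabbr1 held 16 and 66.0%, beside a median of 6 CpG and 52.4% over all 32841 windows of that length. The nuclear factor I half-site stood 45 to 50 bases before the start of Gabra6, read on the other strand as TGCCAA, and in 12.3% of all windows. A CCAAT box, likewise on the other strand as ATTGG, stood 116 to 120 bases before the start of Gabra6 and 123 to 127 before that of Gabrg1, and in 33.9% of all windows. Gabbr1 held 2 GC boxes, which 32.7% of windows held. The ROR half-site, found in 14.0% of windows, was in none of the 13 windows of the 9 members in the table. Motifs did not overlap in the windows shown, and a match of letters is a description only.

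The first question was which subunits were detected. Levels are quantile-normalized log2 signals, and no level is compared between probe sets, because equal RNA amounts need not give equal signals on them. Examples from a list were picked by signal, which does not order the genes by their RNA. A background bound was set on each array at the 95th percentile of 84 genes known from non-brain organs, of which 4 passed it on all 4 arrays. The bound was 5.91 and 5.91 on the arrays of animal 2 and 6.20 and 6.19 on those of animal 1. Of the 10 genes, 5 lay above it on all 4 arrays by their brightest probe set: Gabra4, Gabra6, Gabrb1, Gabrb2 and Gabbr1. The same held for 26.1% of all named genes. Gabrg1 passed on 3 arrays, and Gabra2, Gabra3, Gabra5 and Gabrd passed on none. Among the 29 probe sets, 9 passed on all 4 arrays, beside 18.7% of all probe sets with 1 symbol, 3 passed on 2 or 3 arrays, and 17 passed on none, beside 67.8%.

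**Figure D1:**
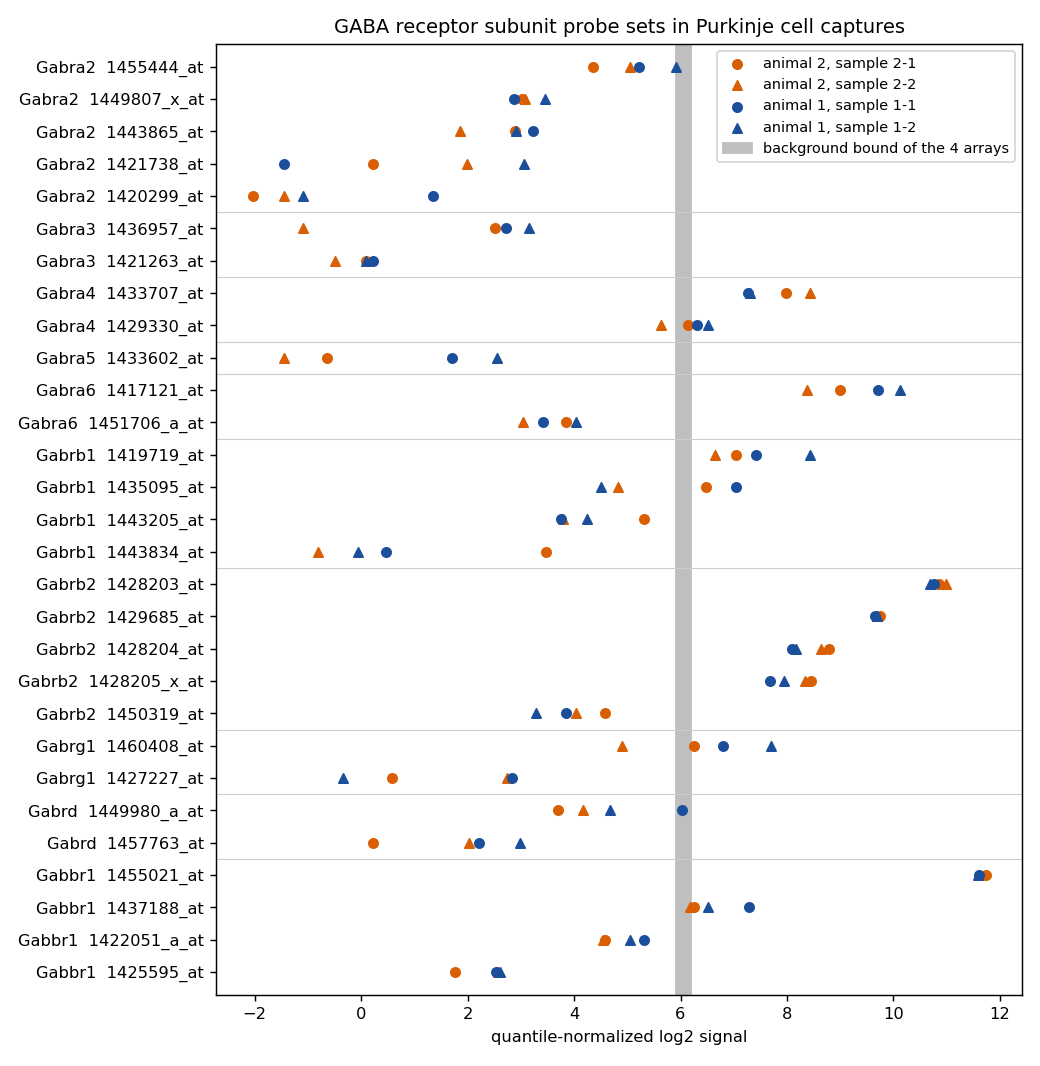
Quantile-normalized log2 signal (horizontal axis) of all 29 probe sets, grouped by gene, in the 2 samples of animal 2 and the 2 samples of animal 1; the grey band spans the background bounds of the 4 arrays, from 5.91 to 6.20. Probe sets of Gabrb2 and Gabbr1 lie on both sides of the band, while all probe sets of Gabra2, Gabra3, Gabra5 and Gabrd stay in it or left of it.

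Alpha subunits, which set much of the receptor's pharmacology, were above the bound on all 4 arrays for 2 of 5 genes. Gabra6, the alpha 6 subunit, stood at 9.0 and 8.38 in samples 2-1 and 2-2 of animal 2, against 9.72 and 10.12 in samples 1-1 and 1-2 of animal 1 (probe set 1417121_at). The deposited signals were 551.4 and 442.1 in animal 2, against 708.2 and 963.9 in animal 1. Both samples of animal 2 were below both of animal 1, and the lowest sample was still 2.47 above its bound. The other probe set of Gabra6 (1451706_a_at) ran from 3.04 to 4.03 and stayed below the bound on every array.

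Gabra4, the alpha 4 subunit, which pairs with delta in forebrain receptors outside synapses, stood at 7.98 and 8.44 in animal 2, against 7.27 and 7.31 in animal 1 (1433707_at). Both samples of animal 2 were higher, and all 4 were between 1.07 and 2.53 above the bound. On its other probe set (1429330_at) Gabra4 stood at 6.14 and 5.64 in animal 2, against 6.31 and 6.51 in animal 1. There the order of the animals was turned round, and all values were within 0.32 of the bound, so that 3 of 4 arrays passed.

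The other alpha subunits gave no signal above the bound in any sample. Gabra2, the alpha 2 subunit, came closest on the brightest of its 5 probe sets (1455444_at), at 4.35 and 5.06 in animal 2, against 5.22 and 5.91 in animal 1, the last 0.28 under the bound. Gabra3 stayed at or below 3.16 on both of its probe sets. Gabra5, the alpha 5 subunit known from the hippocampus, had 1 probe set (1433602_at), at -0.64 and -1.45 in animal 2, against 1.72 and 2.56 in animal 1. These correspond to deposited signals of 0.7 and 0.5 in animal 2, against 3.0 and 5.5 in animal 1, far under the bound on all 4 arrays.

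Both beta subunits, which form the GABA site together with alpha, were above the bound on all 4 arrays. Gabrb2, the beta 2 subunit, passed the bound on all 4 arrays with 4 of its 5 probe sets. On the brightest (1428203_at) it stood at 10.86 and 10.99 in animal 2, against 10.76 and 10.69 in animal 1, with deposited signals of 1993.7 and 2595.4 in animal 2, against 1475.7 and 1413.6 in animal 1. All 4 samples lay within 0.30 of each other, and the lowest was 4.50 above its bound. On 1429685_at the values were 9.75 and 9.70 in animal 2, against 9.65 and 9.70 in animal 1, a range of 0.10 in which the animals touched. The remaining bright pair, 1428204_at and 1428205_x_at, carry the same annotated accession as 1428203_at and are not independent of it. They stood at 8.79 and 8.63, and at 8.45 and 8.33, in animal 2, against 8.09 and 8.17, and 7.69 and 7.95, in animal 1. The last probe set, 1450319_at, stayed at or below 4.58.

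Gabrb1, the beta 1 subunit, stood at 7.05 and 6.65 in animal 2, against 7.42 and 8.43 in animal 1 on its brightest probe set (1419719_at). The lowest sample was 0.74 above its bound and the highest 2.24. A second probe set (1435095_at) gave 6.48 and 4.82 in animal 2, against 7.04 and 4.51 in animal 1, so that samples of 1 animal differed by 1.66 and 2.53 and only 2-1 and 1-1 passed. The other probe sets of Gabrb1, 1443205_at and 1443834_at, passed on no array.

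Of the gamma 1 and delta subunits, Gabrg1 passed on 3 arrays and Gabrd on none. Gabrg1 stood at 6.25 and 4.89 in animal 2, against 6.81 and 7.70 in animal 1 (1460408_at), and sample 2-2 was the one below its bound, by 1.01, while sample 1-2 was 1.51 above. Its second probe set (1427227_at) passed on no array. Gabrd, the delta subunit, stood at 3.71 and 4.17 in animal 2, against 6.03 and 4.68 in animal 1 (1449980_a_at), and sample 1-1 was 0.17 short of its bound. On 1457763_at Gabrd stood at 0.22 and 2.03 in animal 2, against 2.22 and 2.98 in animal 1. All these Gabrd signals were under the bound, so no order between samples is read from them.

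Gabbr1, the ligand-binding subunit of the GABA-B receptor, stood at 11.73 and 11.61 in animal 2, against 11.61 and 11.58 in animal 1 (1455021_at), with deposited signals of 3646.7 and 3878.8 in animal 2, against 2674.2 and 2715.2 in animal 1. The 4 samples lay within 0.15 of each other, and the lowest was 5.40 above its bound. A second probe set (1437188_at) passed on all 4 arrays with smaller margins, at 6.25 and 6.18 in animal 2, against 7.28 and 6.52 in animal 1. The probe sets 1422051_a_at and 1425595_at passed on none, with highest values of 5.31 and 2.61. Of the 9 members with several probe sets, 4 had a probe set above the bound on all 4 arrays and another above it on none, so a gene's call rests on the probe set that stands for it.

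These calls depend on the height of the bound. With the 99th percentile of the same background genes, which set the bounds between 6.46 and 7.79, Gabra6, Gabrb2 and Gabbr1 passed, beside 15.7% of all named genes. With the 90th percentile, which set them between 4.07 and 4.54, Gabra2 and Gabrg1 passed as well and made 7 genes, beside 41.0%. With the median over a gene's probe sets, 2 members passed, Gabra4 and Gabrb2, beside 14.2% of all named genes.

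The second question was how the members varied among samples and between the animals. Over the 4748 named genes that passed everywhere, the median range of the 4 samples was 0.74 and the 95th percentile 1.68. Gabbr1 (0.15) and Gabrb2 (0.30) had ranges below that median on their brightest probe sets, and Gabra6 (1.74) and Gabrb1 (1.78) had ranges above that percentile. Gabra4 lay between, at 1.16. Over the 9 member probe sets above the bound, 4 of them of Gabrb2, the median absolute difference was 0.13 between the samples of animal 2 and 0.08 between those of animal 1, and 0.38 to 0.70 between samples of different animals. All 6534 such probe sets with 1 symbol had 0.35 in animal 2, 0.21 in animal 1 and 0.39 to 0.42 between animals.

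Animal 2 was then set against animal 1 with limma over the 9965 probe sets that passed on 2 or more arrays, of which 12 belonged to members. The fit takes the spread between the 2 samples of each animal, so its p-values describe these samples and not mice in general. Of the 12 member probe sets, 0 were called at a false discovery rate of 0.05, beside 0.421% of all probe sets tested (42, of which 25 were higher and 17 lower in animal 2). On deposited values that split was 644 higher and 11 lower, and with arrays scaled to the same median 85 higher and 13 lower. The median difference of all tested probe sets was -0.05, and it was 0.48 on deposited values and 0.17 with arrays scaled to the same median. At an unadjusted p under 0.05 there were 4 member probe sets, those of Gabra4, Gabra6, Gabrb1 and Gabrg1 named next, beside 18.9% of all tested.

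Gabra6 was lower in animal 2 by the smallest p of the members, with a difference of -1.23 ± 0.28 on the log2 scale (SE, n = 2 samples per animal, limma, adjusted p = 0.117), or 0.427 of the signal in animal 1. Without sample 2-1 the difference was -1.54 ± 0.24 and was called (limma, adjusted p = 0.0236), and without sample 2-2 it was -0.94 ± 0.23 (adjusted p = 0.0533). Gabrg1 differed by -1.68 ± 0.62 on 1460408_at (limma, adjusted p = 0.227), and without sample 2-1 by -2.32. Both values include sample 2-2, which was below the bound, and so give no exact size. The second sets that sample alone against animal 1. Without sample 2-2 the difference of Gabrg1 was -1.005 ± 0.48 (adjusted p = 0.210), and without sample 1-2 it was -1.25 ± 0.97 (adjusted p = 0.803). Without sample 2-1 the count over all probe sets was 716, against 42 with all samples, and the spread then came from the pair of animal 1 alone. Gabrb1 differed by -1.08 ± 0.43 on 1419719_at (adjusted p = 0.252), and by -0.57 without sample 1-2 and -1.58 without sample 1-1.

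Gabra4 differed by 0.92 ± 0.32 on 1433707_at (limma, adjusted p = 0.204), or 1.89 times the signal in animal 1, and by -0.52 ± 0.50 on 1429330_at (adjusted p = 0.621). The second value turned to 0.06 on deposited values, and the opposite signs leave the gene without a direction. Gabrb2 differed by 0.20 ± 0.12 on 1428203_at, by 0.05 ± 0.17 on 1429685_at, and by 0.58 ± 0.25 and 0.57 ± 0.28 on 1428204_at and 1428205_x_at (adjusted p from 0.283 to 0.910). All 4 kept a positive sign under every scaling tried. Gabbr1 differed by 0.08 ± 0.09 on 1455021_at (adjusted p = 0.690), which turned to -0.020 with arrays scaled to the same trimmed mean, and by -0.69 ± 0.46 on 1437188_at (adjusted p = 0.461), with -0.31 without sample 1-1 and -1.07 without sample 1-2.

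**Figure D2:**
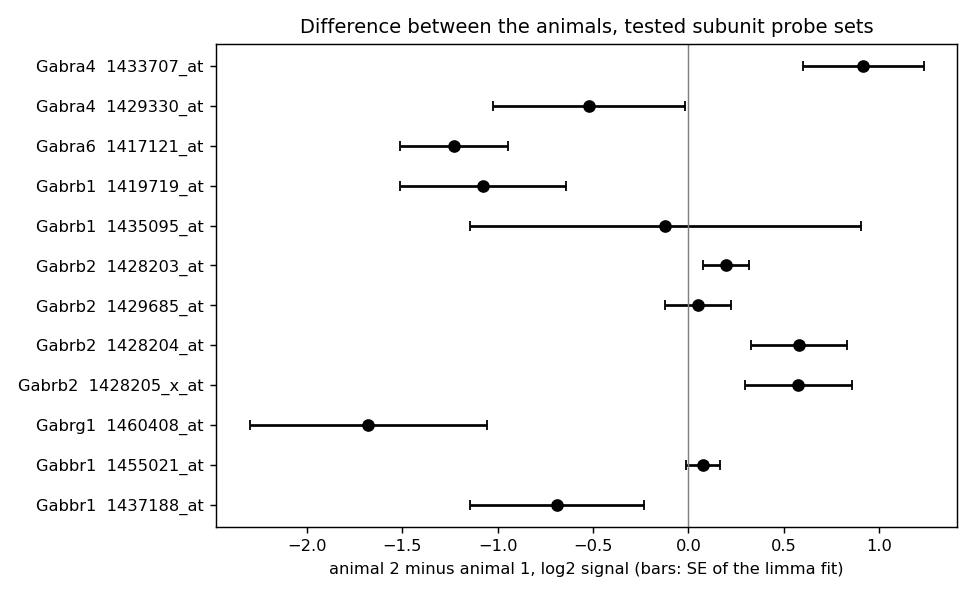
Difference of animal 2 minus animal 1 in quantile-normalized log2 signal (horizontal axis) for the 12 member probe sets tested; points are the limma estimates and bars their SE. Gabra6 at -1.23, Gabrb1 at -1.08 and Gabrg1 at -1.68 lie left of 0, Gabra4 has a probe set on each side, and the 4 probe sets of Gabrb2 lie right of 0. The Gabrg1 value includes sample 2-2, which was below its bound, and so gives no exact size.

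Both samples of animal 2 were higher than both of animal 1 on 5 of the 12 tested probe sets, beside 24.7% of all tested, and lower on 5, beside 26%. Of the 5 higher, 3 belonged to Gabrb2 and share 1 annotated accession, so they do not count as independent. The others were those of Gabra4 (1433707_at) and Gabbr1 (1455021_at). On that Gabbr1 probe set the nearest samples of the animals were only 0.0004 apart. The 5 lower were those of Gabra4 (1429330_at), Gabra6, Gabrb1, Gabrg1 and Gabbr1 (1437188_at). Of the adjacent genes, Gabra6 was lower and Gabrb2 higher in animal 2 on these probe sets, with none of the differences called. Of the overlapping genes, Gabrb1 was lower on 1419719_at and its animals overlapped on 1435095_at. Gabra4 was higher on 1433707_at and lower on 1429330_at. No order of that pair is read from these values, and none of the differences was called.

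Markers of cerebellar cell types were read in the same samples, because a laser capture can hold pieces of neighbouring cells. In such bulk samples, fewer cells of a type and less RNA per cell cannot be told apart. For every marker list the shares to read beside its counts are the same. On all 4 arrays together 26.1% of all named genes passed. Of all tested probe sets, 0.421% were called and 46.6% had a positive difference. Of the Purkinje cell markers, 14 of 15 measured genes passed on every array, and their summed signal was 81835 and 81059 in animal 2, against 76011 and 75514 in animal 1. Among them were Calb1 (13.68), Pcp4 (13.58), Car8 (13.50) and Foxp2 (8.84), and Lhx5 (6.33) passed on 3 arrays. Calb1 had the same value on all 4 arrays, at the top of the ranks that quantile normalization makes equal. Of the 15 tested, 1 was called, Pcp2, with a difference of 0.57 ± 0.07 (limma, adjusted p = 0.0414).

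Granule cell markers, with the member genes left out, passed on all 4 arrays for 4 of 17 genes: Zic1 (10.52), Kcnd2 (9.08), Cbln1 (8.55) and Neurod1 (7.58). The defining granule cell genes Pax6 (2.89) and Slc17a7 (1.98) were below the bound on every array, and no granule marker was listed at 0. The summed signal of the list was 2242 and 2654 in animal 2, against 4242 and 4771 in animal 1. Of the 7 granule markers tested, 6 had negative differences, with a median of -1.26, beside -1.23 for Gabra6. Zic1, a granule cell transcription factor, differed by -1.29 ± 0.18 (limma, adjusted p = 0.0515), and 0 of the 7 were called. The part of granule cell RNA in the levels and differences of Gabra6 and Gabrd was not tested.

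Bergmann glia and astrocyte markers passed on all 4 arrays for 12 of 18 genes, among them Gja1 (11.72), Hopx (11.58) and Timp4 (11.08), while Hes5 (2.91) and Slc6a11 (2.22) passed on none and no marker was listed at 0. Their summed signal was 14952 and 13015 in animal 2, against 17211 and 17583 in animal 1. Of 15 tested, 10 had negative differences, with a median of -0.18, and 0 were called by limma. Gfap is counted in these 15 but passed only in animal 2, so its positive difference gives no exact size. The part of glial RNA in the levels and differences of Gabrg1, Gabra2 and Gabrb1 was not tested. Molecular layer and Golgi interneuron markers passed on all 4 arrays for 2 of 11 genes, Lgi2 (7.72) and Prkcd (6.87). Npy (5.82) passed on 2 arrays, Slc6a5 (2.84) and Sst (2.32) passed on none, and no marker of the list was listed at 0. The summed signal of the interneuron list was 544 and 623 in animal 2, against 653 and 721 in animal 1. Of 5 interneuron markers tested, 3 had negative differences, with a median of -0.81, and 0 were called by limma. Among them Npy passed only in animal 1 and Nxph1 only in animal 2, so their differences, which had opposite signs, give no exact size.

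**Figure D3:**
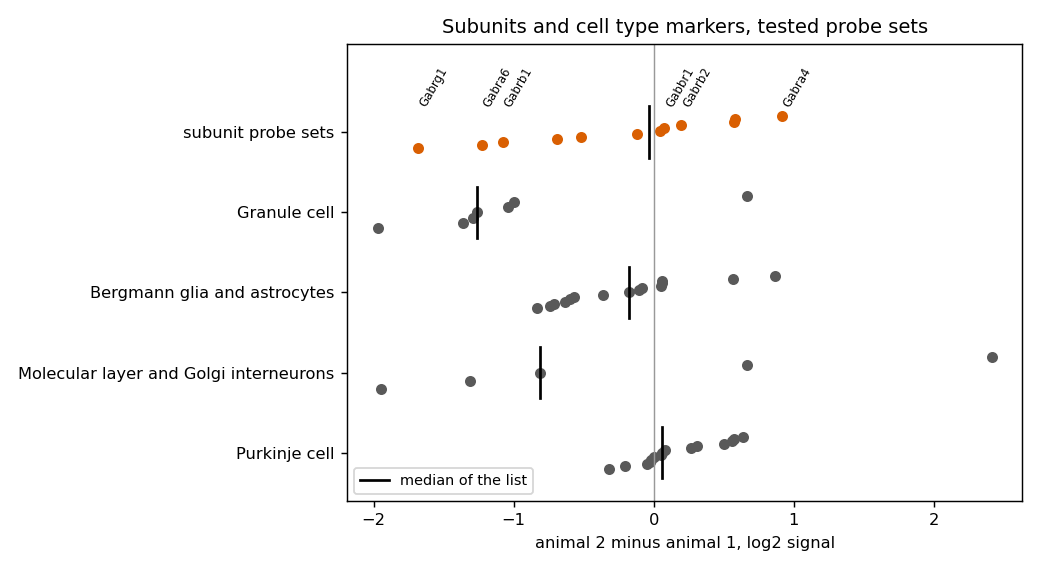
Difference of animal 2 minus animal 1 in log2 signal (horizontal axis) for the tested probe sets of the subunits and for the tested genes of 4 marker lists (vertical axis); each point is a probe set or gene, black lines are medians, and vertical position within a list only separates points. The granule cell median lies at -1.26 and the Purkinje cell median at 0.06, with Gabra6, Gabrb1 and Gabrg1 at the left end of the subunits.

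Oligodendrocyte markers passed on all 4 arrays for 4 of 11 genes, among them Cnp (11.38), Mbp (10.18) and Olig1 (8.35), with Mog (0.34) and Olig2 (0.34) on none. Their summed signal was 4695 and 3482 in animal 2, against 5401 and 5197 in animal 1. The 4 tested had a median difference of -0.28. Of these, 2 were higher in animal 2, Mbp by 0.13 and Olig1 by 0.52, and the rest were lower, with a difference of -0.69 for Cnp. Of the microglia markers, Csf1r (6.94) passed on all 4 arrays and the other 8 of 9 on none, among them C1qb (4.98), Tyrobp (3.02), C1qa (0.73) and Aif1 (-0.24). Csf1r, the receptor for macrophage colony-stimulating factor, differed by -1.46 ± 0.38 (limma, adjusted p = 0.138). The summed microglia signal was 157 and 173 in animal 2, against 272 and 227 in animal 1. The order of these sums is that of Csf1r, at 6.05 and 6.36 in animal 2, against 7.81 and 7.52 in animal 1. The other 8 markers were under the bound on every array, so no order between the animals is read from them. The part of interneuron, oligodendrocyte or microglia RNA in the members' levels was not tested.

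The other genes of GABA signalling were read from a list of 59, of which 49 had a probe set with 1 symbol. Of these 49, 27 passed on all 4 arrays, beside 26.1% of all named genes, 5 passed on some arrays, and 17 passed on none. Of 31 tested between the animals, 0 were called by limma, beside 0.421% of all probe sets tested. Kcnj9 and Zdhhc3 are counted in these 31 but passed only in animal 2, so their positive differences give no exact size. None of the 6 other subunits measured passed on any array: Gabrp (3.39), Gabre (2.93), Gabrg3 (2.75), Gabrr1 (2.11), Gabrq (1.00) and Gabrr2 (0.59). These are the pi, epsilon, gamma 3, rho 1, theta and rho 2 subunits, most of them known from tissues or brain regions other than the cerebellar cortex.

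Partners of the GABA-B receptor passed in 5 of 11 cases, beside 26.1% of all named genes. The inhibitory G protein subunit gene Gnai1 was at 12.82 ± 0.24, Gnao1 at 9.15 ± 0.02 and Gnai2 at 7.74 ± 0.48 (SD, n = 2 animals). The beta subunit gene Gnb1 averaged 9.94 in animal 2 and 10.06 in animal 1. The potassium channel gene Kcnj3, whose channel opens on GABA-B activation in many neurons, was at 7.28 ± 0.20. Kcnj9, which encodes another subunit of such channels, stood at 8.85 and 7.37 in animal 2, against 4.04 and 4.21 in animal 1, and passed only in animal 2. Because both samples of animal 1 were under the bound, only a limit can be given. The mean of animal 2 was 3.77 times the mean bound of animal 1, and the difference was not called by limma. Its p-value is left out, because the gene passed the filter only through animal 2. The channel gene Kcnj5 (2.05) and the receptor's auxiliary subunit gene Kctd16 (0.33) passed on no array.

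Genes of GABA-A receptor scaffold and assembly passed in 15 of 22 cases, beside 26.1% of all named genes. Among them were the trafficking gene Gabarapl1 (9.93 ± 0.50), the adhesion gene of inhibitory synapses Nlgn2 (9.13 ± 0.74), Mocs2 (8.90 ± 0.27), which acts in molybdenum cofactor synthesis as gephyrin also does, and Rdx (8.82 ± 0.73), radixin, which anchors alpha 5 receptors (SD, n = 2 animals). Gphn, gephyrin itself, the main scaffold of inhibitory synapses, also passed, at 6.78 ± 0.04, as did the trafficking gene Gabarap, the dystrophin gene Dmd, Nsf, Ubqln1, Gabarapl2, Trak2, Lhfpl4, Clptm1, Maged1 and Iqsec3. Mocs1 (2.58) and Slitrk3 (0.93) passed on none.

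Chloride transport genes, which set the gradient that GABA-A receptors work on, passed in 7 of 10 cases, beside 26.1% of all named genes. Slc12a5, the neuronal chloride exporter KCC2, stood at 12.20 ± 0.28 and the bicarbonate transporter gene Slc4a10 at 12.00 ± 0.22 (SD, n = 2 animals). The chloride-proton exchanger gene Clcn3 was at 9.81 ± 0.11 and the kinase gene Wnk1 at 8.67 ± 0.48, and Slc4a3, the chloride importer gene Slc12a2 and the kinase gene Stk39 also passed. Slc12a7 (1.31) and the channel gene Clcn2 (0.39) passed on none. Over the 31 tested genes of the GABA list no role list held a called gene, and the role medians of the difference lay between -0.05 and 0.06.

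**Figure D4:**
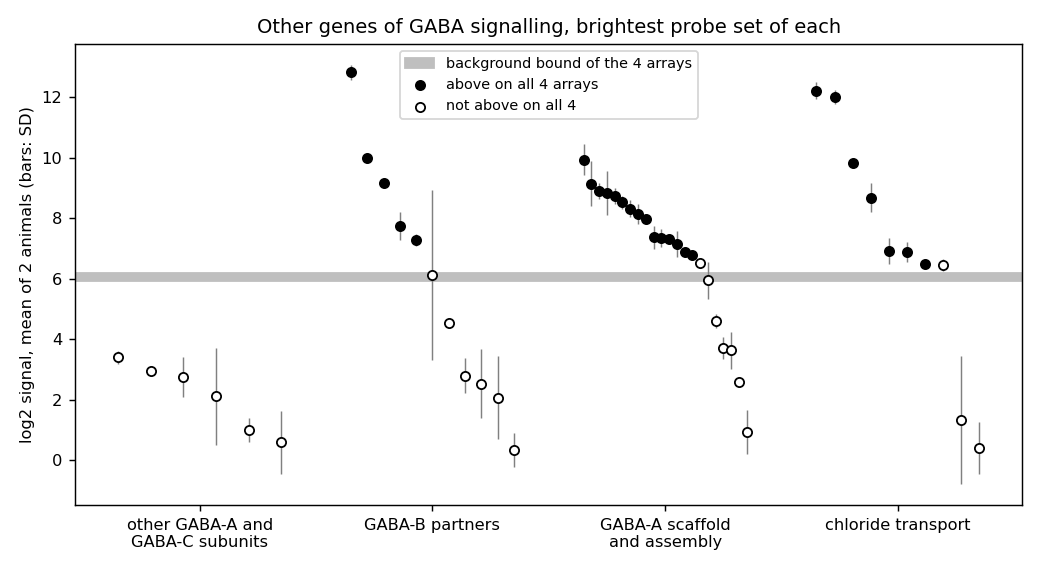
Mean log2 signal over 2 animals (vertical axis, bars are the SD) of the brightest probe set of each of 49 other genes of GABA signalling, by role (horizontal axis); filled points passed the bound on all 4 arrays, open points did not, and the grey band spans the bounds. All 6 other receptor subunits lie under the band, and 27 genes of the other roles are filled.

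Among members above the bound on all 4 arrays, Gabrb1 had the widest range, and the genes with the most similar pattern over the 4 samples were sought among 4747 other genes that passed on all 4 arrays. By root mean square difference of centred log2 signals these were A2m (0.12), Pgm2l1 (0.14), Rpp30 (0.17), Chl1 (0.17) and Wbp4 (0.18). With 4 samples, many genes share a pattern, and the values describe these arrays only.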

How the data were processed

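Purkinje cells were measured on 4 Affymetrix arrays, 1 per sample. Each deposited value is a linear intensity signal, and GCOS is the program named per the submitters' processing notes. No source used here gives its version, algorithm or scaling, and detection calls were not used. Columns of other samples numbered 0. Per the labels' protocols, about a nanogram of RNA was amplified in the Affymetrix 2-cycle protocol.

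Of 45101 probe sets, 64 controls were left out. A symbol came from the platform annotation for 34945 (1 symbol), 932 had several and 9160 none there, and 0 of the members' symbols needed an update through RefSeq gene IDs. The members, lists and tests were chosen with earlier results of these data known. Because trimmed means (2% from each end) differed by 46.6% of their average, signals (floor 0.1) were log2-transformed and quantile-normalized in limma 3.58.1 (R 4.3.3). The background list kept 84 of 89 genes, and a gene stood for its brightest probe set. Means and SDs were taken over 2 animals. Animals were compared with lmFit and eBayes (trend, 2 residual degrees of freedom), with Benjamini-Hochberg adjustment over all probe sets tested. The fit was also run on simulated data with independent noise in every sample. That simulation held no array or batch effects, so it does not check the p-values of these samples. The number of arrays limits the precision, and scan batches could not be tested.

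Named were all members. From each GABA role list, the 4 highest and 2 lowest were given values and the other passing genes named, and all 6 other subunits were named. From each marker list the 3 highest and 2 lowest were named, together with the 5 nearest patterns. The values of Gphn and Kcnj3, and the names Gfap, Kcnj9, Neurod1, Nxph1, Pcp2, Zdhhc3 and 4 of the 6 other subunits, were added after their values were seen. Alternatives were other bounds, normalizations, an offset of 16, filters, probe set choices, no trend, a replicate block and leaving out each sample.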

Additional observations from a re-analysis of the deposited data

Results flagged for a closer look

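In 3 of the 29 member probe sets, 1 of the 4 samples stood apart from the others by Dixon's test at its 95% level. Chance flags about 1 in 20 groups, and 7.08% of all probe sets with 1 symbol met the same criterion. Of the 12 members tested between the animals it was 1, beside 6.10% of all probe sets tested. On Gabbr1 (1455021_at), sample 2-1 was at 11.73, against 11.58 to 11.61 in the other 3. On Gabbr1 (1425595_at), sample 2-1 was at 1.77, against 2.53 to 2.61 in the others. On Gabra3 (1436957_at), sample 2-2 was at -1.10, against 2.52 to 3.16 in the others. The values of 1425595_at and 1436957_at lie under the background bound on every array.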

How the results depend on the processing

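The count of 5 members above the bound was 3 at the 99th percentile and 2 with the median over probe sets, and 5 to 6 when each sample was left out in turn. The GABA list of 27 was 17 and 11 under the same settings and 27 to 28 without single samples. The 9 member probe sets became 14 at the 90th percentile, and 9 to 11 without single samples. Other bounds, normalizations and probe set choices moved these counts by at most 1.5 times. All probe sets called between the animals numbered 42 in the reported fit. They were 655 on deposited values, 98 with arrays scaled to the same median, 5 with no filter on dim probe sets and 177 with the filter at all 4 arrays. Without the mean-variance trend limma called 0, with 1664 at an unadjusted p under 0.05. Without single samples the count ran from 1 to 849, lowest without 1-1 or 1-2 and highest without 2-2. With the replicate block it was 238 for all probe sets and 0 for members. Deviations of same-numbered samples correlated at -0.003. With 2 samples per animal this single value cannot tell whether same-numbered samples shared a processing step. Member calls were 0 throughout, except 2 without sample 2-1 (range 0 to 2). Of 139 member differences recomputed, 132 kept direction and side of the threshold and 5 reversed. These were Gabra4 (1429330_at) at 0.055 and Gabrb1 (1435095_at) at 0.39 on deposited values, Gabrb1 (1435095_at) at 0.078 with arrays scaled to the same median and at 0.70 without sample 2-2, and Gabbr1 (1455021_at) at -0.020 with trimmed means. Without single samples Gabrb1 (1435095_at) ran from -1.40 to 0.70. The causes were not tested. Signals under the bound set no order between samples.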
